A study of Mus musculus with 98 samples.

Results

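Transcript decay was followed in mouse TBLC and in the differentiating culture derived from them, for every gene of 1 actinomycin D course. TBLC are totipotent blastomere-like cells, a stem cell state kept here in a medium named 2MYCP, and diffTBLC are TBLC moved to a medium named SLM for 3 days. Both arms were collected after 0, 1, 2 and 3 h in actinomycin D, with 2 libraries at each time, which gives 16 of the 98 samples of the series. The arms differ in medium and days of culture, and no genetic change or transfection is given for either. Elsewhere in the series, TBLC moved to SLM for a shorter time are labelled PlaB-. The arms may therefore also differ in the presence of PlaB, and its part in the slopes was not tested. All columns of that count table were used, and 14463 of its 21812 gene symbols had enough counts to be tested. Beside this course the series holds actinomycin D courses of TBLC_Ctrl cells and of diffTBLC given the control siRNAs siNC1 and siNC2, immunoprecipitations of Ythdf2 and Igf2bp3 with their bound RNA, and the sorted progeny of the 3-day culture.

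Actinomycin D sits in DNA and stops RNA polymerase, so that what happens to a transcript afterwards reflects its removal. A transcript with a short life loses share of the RNA pool within hours, while a long-lived one gains share because others are lost. In mammalian cells many of the shortest lived transcripts are immediate early genes with AU-rich elements, regulators of signalling and zinc finger transcription factors, and the longest lived include those for ribosomal proteins, respiratory chain subunits and metabolic enzymes. The methyl mark m6A, written by a complex with Mettl3, Mettl14, Wtap and Virma, is one known route to decay through the reader Ythdf2, and Igf2bp proteins are known as readers that stabilise RNA. Which transcripts change their decay when TBLC leave their state is the question of this comparison.

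The 16 libraries held 17595126 to 23145666 counts, and the 2 libraries of each group were close but not copies (chi-square per degree of freedom of 1.1 to 1.85 over their counts). The labels do not say that those 2 came from separate cultures, so the spread between libraries may be technical. A p-value of a slope here is set against the spread of libraries around a straight line. That spread also holds any departure from the line. At 0 h the summed level of 8 primitive endoderm markers was 53.5 and 53.6 CPM (counts scaled to library size) in TBLC and 1423 and 1424 CPM in diffTBLC, and none of them was at 0. The sum of 5 pluripotency markers was 2915 to 2919 CPM in TBLC and 2688 to 2727 CPM in diffTBLC. Of these, Pou5f1 went from a mean of 991 to 1633 CPM. Nanog (479 to 209.5), Esrrb (518 to 226), Sox2 (369 to 240.3) and Zfp42 (560.1 to 399) were lower in diffTBLC. Markers of both kinds of cell were thus present in diffTBLC, whose 3-day culture also yields the sorted CD140+ PrE-T and CD140- EPI-T cells of the series. In bulk samples, fewer cells of a type and less RNA per cell cannot be told apart, and neither can a changed decay within cells from a changed mixture. Sums of 5 2-cell-like markers were 47.7 to 48.2 CPM against 34.4 to 35.7 CPM, sums of 7 fibroblast markers 247 to 257 CPM against 88.3 to 94.8 CPM, and sums of 5 trophectoderm markers 20.2 to 21.8 CPM against 15.8 to 18.9 CPM, with none of these markers at 0. Their part in the slopes was not tested.

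Slopes of the 2 states went together across genes, and for a minority the difference between them passed the test. For each gene a slope of log2 level against hours was fitted in each arm, in units of log2 per hour; it is relative to the centre of all transcripts, since no spike-in is described, and so gives no half-life. In TBLC the slope passed for 65.2% of genes, of which 4057 fell and 5378 rose (28.1% and 37.2% of those tested, edgeR quasi-likelihood test with Benjamini-Hochberg adjustment at 0.05), and in diffTBLC it passed for 59.4%, of which 4139 fell and 4449 rose (28.6% and 30.8%). The 2 arms' slopes correlated across genes with r = 0.82 (Spearman's rho 0.82 over 14463 genes, which are not independent replicates and share the normalization). Between arms the slope differed for 1188 genes, 8.21% of those tested. It was higher in diffTBLC for 370 (2.56%), called slower decay below, and lower for 818 (5.66%), called faster decay.

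The slower transcripts were mostly ones that declined in TBLC: 347 of the 370 had a slope below 0 there, with a median of -0.35, against -0.12 in diffTBLC. Most faster ones did not decline in TBLC, with 218 of 818 below 0 and a median slope of 0.12, against 471 below 0 and a median of -0.042 in diffTBLC. These medians describe genes chosen by the difference itself. The faster set was also more abundant, with a median level of 5.86 log2 CPM against 4.45 in the slower set and 4.18 over all genes. Differences were modest, with a median size of 0.21 in the slower and 0.14 in the faster set; 132 slower and 106 faster genes differed by at least 0.25 log2 per hour. Each of the 1188 had the same sign from replicate 1 libraries and from replicate 2 libraries, with replicate slopes that did not overlap between arms, as did 63.7% of all genes tested.

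**Figure D1:**
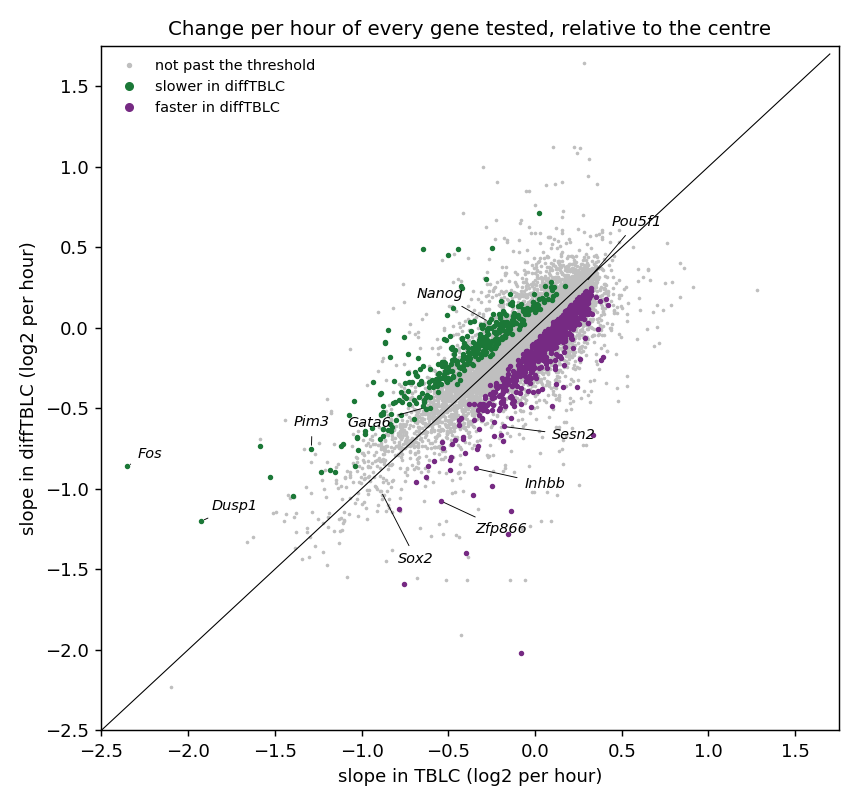
Slope of each of the 14463 genes in TBLC (x axis) and diffTBLC (y axis), both in log2 per hour relative to the centre of all transcripts; green points are the 370 genes with slower decay in diffTBLC, purple points the 818 with faster decay, grey points the rest, and the line marks equal slopes. The cloud follows the line (r = 0.82), Fos and Dusp1 lie far above it at the left, and Sesn2 and Inhbb lie below it.

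How the called genes divide between slower and faster depended on the scaling, while the sign of each did not. Slower genes were 31.1% of the calls here, 59.0% of 826 calls with RLE factors, 36.8% of 855 with library totals and 53.2% of 1184 with DESeq2. Scaled to ribosomal protein transcripts or to nuclear-encoded respiratory chain transcripts, the calls fell to 109 and 248, of which 69.7% and 66.9% were slower. All 370 slower and all 818 faster genes kept their sign under these 4 other scalings, and 308 slower and 337 faster genes were called under both RLE factors and library totals. The library that TMM takes as its reference, diffTBLC 1 h replicate 1 here, weighed most on the split. With TBLC 2 h replicate 2 in its place, an alternative chosen after seeing the data and called the TBLC reference below, 1430 genes were called, of which 1266 (88.5%) were slower, and the median difference over all genes moved from -0.021 to 0.040. The slower were then 8.75% and the faster 1.13% of all genes tested, which is the background of every count given below with that reference. All 370 slower genes and 164 of the 818 faster ones were called with that reference as well, and each of the 1188 kept its sign. Without diffTBLC 3 h replicate 1 or 2 the calls were 998 and 890, of which 87.8% and 88.7% were slower, but there the reference moved to the same TBLC library. With the first reference kept they were 694 and 596, of which 35.0% and 35.4% were slower. Values below without either of these 2 libraries include the move unless the reference is said to be kept. Without TBLC 3 h replicate 1 or 2 the calls were 676 and 641. The time points weighed as well: 4725 genes were called with the 0 h libraries left out, 45.1% of them slower, and 417 with the 3 h libraries left out, 20.1% of them slower. A named gene below kept its call without each library in turn unless its text says otherwise.

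Immediate early and AU-rich transcripts, which had the lowest median slopes of the 29 lists in both states, decayed more slowly in diffTBLC where they differed. Of 34 listed genes 33 were tested, and 30 fell in TBLC and 31 in diffTBLC, with median slopes of -0.83 and -0.71. The difference passed for 10, all of them slower (2.56% of all genes are), with a median difference of 0.15 over the list against -0.021 over all genes. Without TBLC 0 h replicate 1 or 2 the count was 6 and 5, and with the TBLC reference it was 13.

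Fos, a subunit of the AP-1 transcription factor, measured 10.1 and 10.5 CPM at 0 h, 1.06 and 1.12 at 1 h, 0.273 and 0.361 at 2 h, and 0.502 and 0.10 at 3 h in TBLC. In diffTBLC it measured 5.10 and 4.50 CPM at 0 h, 2.58 and 2.86 at 1 h, 1.63 and 1.43 at 2 h, and 0.698 and 0.802 at 3 h. TBLC therefore started higher and ended below it at 1, 2 and 3 h, with slopes of -2.35 in TBLC and -0.86 in diffTBLC (difference 1.49 ± 0.24, adjusted p = 8.02e-04). Most of the gap lay in the first hour: with the 0 h libraries left out the difference was 0.16, adjusted p = 0.705. The TBLC values at 2 and 3 h were below 1 CPM, so they rest on few counts.

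Dusp1, a phosphatase that switches off MAP kinases, measured 26.5 and 27.1 CPM at 0 h, 4.88 and 5.30 at 1 h, 1.28 and 1.31 at 2 h, and 0.821 and 1.25 at 3 h in TBLC. In diffTBLC the values were 79.9 and 79.5 CPM at 0 h, 26.1 and 27.5 at 1 h, 12.3 and 12.7 at 2 h, and 6.21 and 8.62 at 3 h. Every diffTBLC library was above the TBLC library of its time, and the slopes were -1.93 in TBLC and -1.20 in diffTBLC (difference 0.72 ± 0.15, adjusted p = 0.00726). Under DESeq2 the adjusted p was 0.0719, and with the 0 h libraries left out 0.0540.

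Klf10, a TGF-beta inducible zinc finger factor, measured 76.7 and 79.5 CPM at 0 h and 9.72 and 8.93 at 3 h in TBLC, and 91.8 and 90.7 CPM at 0 h and 20.5 and 24.7 at 3 h in diffTBLC. The arms started close together and were separate at 3 h (slopes of -1.02 in TBLC and -0.68 in diffTBLC, difference 0.35 ± 0.040, adjusted p = 3.32e-05). Zfp36l1, which itself binds AU-rich elements and recruits the deadenylase, had slopes of -0.52 in TBLC and -0.24 in diffTBLC (difference 0.29 ± 0.031, adjusted p = 2.25e-05). Btg2, an antiproliferative adaptor of the same deadenylase, had slopes of -0.83 in TBLC and -0.54 in diffTBLC (difference 0.29 ± 0.067, adjusted p = 0.0116).

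Unlike those of Fos, Dusp1, Klf10, Zfp36l1 and Btg2, the calls of the other slower members ended when a single TBLC 0 h library was left out. That concerns the calls and not how much of the difference came from the first hour. Gadd45a, a growth arrest gene, differed by 0.41 ± 0.092, adjusted p = 0.0111, and by an adjusted p of 0.0540 without TBLC 0 h replicate 2. Egr1 (0.85 ± 0.21), Gadd45b (0.65 ± 0.17), Atf3 (0.49 ± 0.13) and Klf6 (0.21 ± 0.058) lost their calls without TBLC 0 h replicate 1 (adjusted p = 0.0577, 0.102, 0.0794 and 0.0707) and replicate 2 (0.0586, 0.0680, 0.0594 and 0.0928), and were chosen for naming after their values were seen, as were Ier2, Jun and Myc. Atf3 also lost it without TBLC 2 h replicate 1 (0.0553), and Klf6 without diffTBLC 0 h replicate 2 (0.0538). With the 0 h libraries of both arms left out, the difference of Egr1 changed sign (-0.11). Those of Gadd45a, Gadd45b, Atf3 and Klf6 stayed positive. Ier2 (0.32 ± 0.15, adjusted p = 0.189), Jun (0.25 ± 0.12, adjusted p = 0.197) and Myc (-0.061 ± 0.10, adjusted p = 0.783) did not pass.

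**Figure D2:**
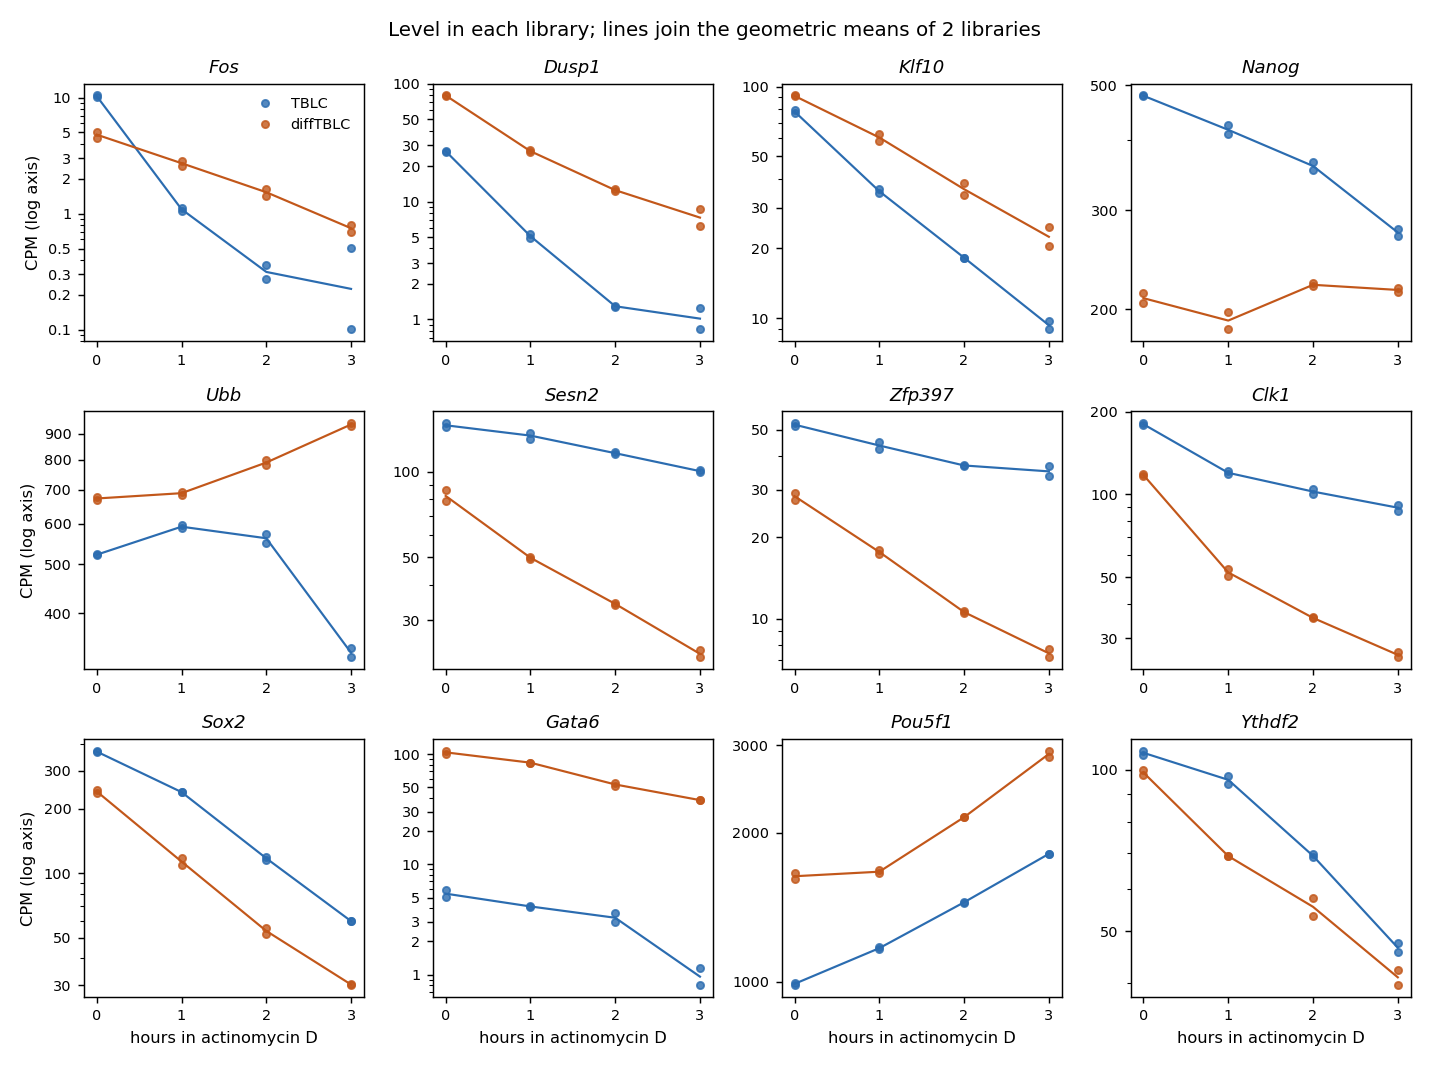
Level in CPM (log axis) against hours in actinomycin D for 12 genes; each point is 1 library, blue TBLC and orange diffTBLC, and lines join the geometric means of the 2 libraries. Fos and Klf10 fall more steeply in TBLC, Nanog falls in TBLC and not in diffTBLC, Sesn2, Zfp397 and Clk1 fall more steeply in diffTBLC, and the curves of Sox2, Pou5f1 and Ythdf2 run nearly parallel in both arms.

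Promoter sequence is shown for 2 of the slower immediate early genes because a cAMP response element, the site bound by CREB and ATF factors, is found there. The motif TGACGTCA reads the same on both strands and was searched in the 250 bases before the start of 27025 genes (RefSeq, GRCm38.p6, not the mm39 build of the counts); 1.77% of those promoters hold it. Among tested genes with a promoter it was in 2.88%, among slower genes in 15 of 293 (5.12%) and among faster genes in 23 of 660 (3.48%). Of 26 immediate early genes with a promoter in the table, 3 hold it (11.5%), namely Dusp1, Btg2 and Maff. The CArG box, the site of serum response factor, was in 1.62% of all promoters, 1.02% of slower, 1.36% of faster and 3 of those 26 (Egr2, Zfp36 and Srf). A match is a description and not a binding site. Both stretches below are 80 bases of the minus strand with the motif in capitals, which begins 143 bases before the start of Dusp1 (chr17:26508572-26508651) and 166 before that of Btg2 (chr1:134079278-134079357).
Dusp1: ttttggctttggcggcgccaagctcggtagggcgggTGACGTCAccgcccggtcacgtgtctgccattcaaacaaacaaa
Btg2: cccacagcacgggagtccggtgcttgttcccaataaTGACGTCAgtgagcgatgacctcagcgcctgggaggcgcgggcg

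Among pluripotency genes Nanog stood out, falling in TBLC with a slope near 0 in diffTBLC, whereas the differences of Sox2 and Pou5f1 did not pass the test. Nanog, a homeodomain factor that maintains the pluripotent state, measured 480.2 and 478 CPM at 0 h, 425 and 409.6 at 1 h, 365 and 354 at 2 h, and 270.1 and 278 at 3 h in TBLC. The diffTBLC libraries had 205 and 214 CPM at 0 h, 184 and 198 at 1 h, 223 and 219.9 at 2 h, and 215 and 218 at 3 h. Every TBLC library was above every diffTBLC library, and the decline was in TBLC only (slopes of -0.26 in TBLC and 0.035 in diffTBLC, difference 0.30 ± 0.032, adjusted p = 2.25e-05).

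Sox2, the partner of Oct4 on DNA, had one of the steep declines of this group, from 366 and 371 CPM at 0 h and 59.8 and 59.5 at 3 h in TBLC and from 236 and 244 CPM at 0 h and 30.0 and 30.3 at 3 h in diffTBLC. Its slopes were -0.89 in TBLC and -1.01 in diffTBLC and the difference did not pass (-0.13 ± 0.043, adjusted p = 0.0764). Pou5f1, which encodes Oct4, gained share in both arms, with slopes of 0.29 in TBLC and 0.28 in diffTBLC (difference -0.011 ± 0.034, adjusted p = 0.895). A slope of about that size was shared by ribosomal protein transcripts, described further on.

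Of the 21 naive pluripotency genes, all tested, 14 fell in TBLC and 15 in diffTBLC (median slopes of -0.28 and -0.22). In diffTBLC 4 decayed more slowly and 1 faster (19% and 4.76%, against 2.56% and 5.66% of all genes). With the TBLC reference 7 and 0 did, against 8.75% and 1.13% of all genes. Beside Nanog the slower ones were Tbx3, a T-box factor (0.24 ± 0.054, adjusted p = 0.0123), Sall4, a zinc finger factor (0.23 ± 0.044, adjusted p = 0.00314), and Klf2 (0.34 ± 0.092, adjusted p = 0.0288). Klf2 lost the call without TBLC 3 h replicate 1 or 2 (adjusted p = 0.0824 and 0.0815), and Tbx3 without diffTBLC 3 h replicate 2 with the reference kept (0.0529). With the 3 h libraries of both arms left out Tbx3, Sall4 and Klf2 all did (0.310, 0.714 and 0.875). Zfp57, a guardian of imprints, was the faster one (-0.092 ± 0.028, adjusted p = 0.0477), a call that ended without 13 of the 16 libraries, with adjusted p up to 0.460. Klf2 and Zfp57 were named after their values were seen. Of 16 formative genes Lefty2, an inhibitor of Nodal (0.10 ± 0.022, adjusted p = 0.00760), Utf1, a chromatin factor (0.18 ± 0.051, adjusted p = 0.0362) and Nodal were slower and Dnmt3b was faster; the call of Utf1 ended without 5 of the 16 libraries, with adjusted p up to 0.125. Slower genes were thus 18.8% and faster ones 6.25% of the formative list, against 2.56% and 5.66% of all genes. None of 16 tested 2-cell genes passed for the slope difference in edgeR or DESeq2 (4 at an unadjusted p under 0.05 in edgeR). Their median difference was -0.15, against -0.021 over all genes, and the slope of none passed in either arm. Missing the threshold therefore does not show that their decay was equal.

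Primitive endoderm markers were far more abundant in diffTBLC, while the slope differences of their regulators did not pass the test. Gata6, an early endoderm factor, measured 5.01 and 5.86 CPM at 0 h, 4.16 and 4.14 at 1 h, 3.60 and 2.98 at 2 h, and 1.14 and 0.803 at 3 h in TBLC. Levels in diffTBLC were 101 and 107 CPM at 0 h, 83.5 and 84.0 at 1 h, 51.5 and 54.8 at 2 h, and 38.4 and 38.2 at 3 h. All diffTBLC libraries were above all TBLC libraries, both arms fell, and the slopes were -0.63 in TBLC and -0.50 in diffTBLC (difference 0.14 ± 0.10, adjusted p = 0.421).

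Other endoderm regulators and a marker also missed the threshold: Gata4 differed by 0.10 ± 0.066, adjusted p = 0.377, Sox17 by -0.094 ± 0.22, adjusted p = 0.851, Sox7 by -0.28 ± 0.14, adjusted p = 0.253, and Pdgfra, a receptor that marks these cells, by -0.077 ± 0.052, adjusted p = 0.399. Of 25 listed genes, all tested, 10 fell in TBLC and 9 in diffTBLC, and the median slopes were 0.10 and 0.039. The difference passed for 1 slower and 1 faster gene (4% and 4%, against 2.56% and 5.66% of all genes). Fst, which binds activin, was the slower one and, unlike the markers summed above, was higher in TBLC. It measured 46.4 and 47.2 CPM at 0 h and 22.2 and 21.9 at 3 h in TBLC, and 10.4 and 11.3 CPM at 0 h and 10.2 and 10.0 at 3 h in diffTBLC (slopes of -0.39 in TBLC and -0.049 in diffTBLC, difference 0.34 ± 0.050, adjusted p = 4.18e-04). Sparc, a matrix glycoprotein, was the faster one (-0.076 ± 0.023, adjusted p = 0.0429), and its call ended without 13 of the 16 libraries, with adjusted p up to 0.747. The list's counts of slower and faster genes were 2 and 6 without diffTBLC 0 h replicate 1, 2 and 5 without replicate 2, and 3 and 0 with the TBLC reference.

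Signalling genes were short-lived in both states. Among 22 Wnt, BMP and Nodal targets, with median slopes of -0.41 and -0.35, 4 were slower (18.2%, against 2.56% of all genes) and none faster, with a median difference of 0.080. They were Lefty2, the ligands Nodal (0.35 ± 0.10, adjusted p = 0.0405) and Bmp4 (0.21 ± 0.051, adjusted p = 0.0173) and the Wnt target Sp5 (0.59 ± 0.16, adjusted p = 0.0307). Bmp4 lost its call without TBLC 3 h replicate 2 (adjusted p = 0.0692), Nodal without 6 of the 16 libraries (up to 0.101) and Sp5 without 5 (up to 0.0705), while Lefty2 kept it. The list's count of slower genes was 2 and 1 without TBLC 3 h replicate 1 and 2, 2 without diffTBLC 3 h replicate 1 or 2 with the reference kept, and 6 with the TBLC reference.

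Of 19 FGF and ERK feedback genes, with median slopes of -0.52 and -0.51, 1 was slower and 2 were faster (5.26% and 10.5%, against 2.56% and 5.66% of all genes), or 3 and 1 with the TBLC reference. Spry1, an inhibitor of receptor tyrosine kinase signalling, was slower (0.26 ± 0.071, adjusted p = 0.0300), a call that ended without 5 of the 16 libraries (up to 0.0884). Etv5, an ERK-induced transcription factor, was faster (-0.16 ± 0.030, adjusted p = 0.00314), but not without diffTBLC 3 h replicate 1 or 2 (adjusted p = 0.164 and 0.133; 0.0125 and 0.0146 with the reference kept), and Fgfr1 was too (-0.10 ± 0.030, adjusted p = 0.0373), but not without 8 of the 16 (up to 0.515). Dusp6 (0.23 ± 0.077, adjusted p = 0.0710) and Spry4 (0.13 ± 0.11, adjusted p = 0.548), among the steepest declines in both arms, did not pass. Nor did Gbx2 of the naive pluripotency list (0.36 ± 0.12, adjusted p = 0.0807), which was also among them. None of 16 tested Notch genes passed in edgeR (2 at an unadjusted p under 0.05, and 1 slower in DESeq2 or with the TBLC reference), with median slopes of -0.26 and -0.26, and Hes1, a Notch-driven repressor, differed by 0.042 ± 0.14, adjusted p = 0.898.

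Stress genes split: several targets of the stress factor ATF4 decayed more slowly in diffTBLC, while Sesn2 decayed faster. Sesn2, an inhibitor of mTORC1 induced by p53 and ATF4, measured 143 and 148 CPM at 0 h, 137 and 131 at 1 h, 115 and 117 at 2 h, and 99.9 and 101 at 3 h in TBLC. In diffTBLC it measured 86.0 and 78.6 CPM at 0 h, 50.1 and 49.4 at 1 h, 34.5 and 34.0 at 2 h, and 22.2 and 23.5 at 3 h. Every diffTBLC library was below every TBLC library, and the slopes were -0.18 in TBLC and -0.61 in diffTBLC (difference -0.43 ± 0.029, adjusted p = 4.35e-08).

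Of 20 genes of the ATF4 response 6 were slower and 2 faster (background 2.56% and 5.66%), and their median difference was -0.0046. Trib3, a pseudokinase that feeds back on ATF4, differed by 0.40 ± 0.063, adjusted p = 8.31e-04. Stc2, a secreted glycoprotein, differed by 0.35 ± 0.044, adjusted p = 9.44e-05, Atf4 itself by 0.25 ± 0.032, adjusted p = 1.09e-04 and Slc3a2, a subunit of amino acid transporters, by 0.20 ± 0.036, adjusted p = 0.00200. Cebpg (0.19 ± 0.056, adjusted p = 0.0373) and Ddit4, an mTORC1 inhibitor (0.23 ± 0.066, adjusted p = 0.0375), had larger p-values. Cebpg lost its call without 6 of the 16 libraries (up to 0.121) and Ddit4 without TBLC 0 h replicates 1 and 2 (0.151 and 0.122) and TBLC 2 h replicates 1 and 2 (0.0541 and 0.0589). The faster ones were Sesn2 and Vldlr, a lipoprotein receptor (-0.37 ± 0.064, adjusted p = 0.00168).

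Ubb, a polyubiquitin gene named after its values were seen, measured 521 and 522 CPM at 0 h, 595 and 589 at 1 h, 551 and 573 at 2 h, and 342 and 328 at 3 h in TBLC. In diffTBLC the values were 668 and 677 CPM at 0 h, 684 and 693 at 1 h, 782 and 800.1 at 2 h, and 945 and 933 at 3 h. The 0 to 2 h libraries of TBLC were higher than its 3 h ones, and in diffTBLC the 3 h libraries were the highest. The slopes were -0.19 in TBLC and 0.16 in diffTBLC (difference 0.36 ± 0.074, adjusted p = 0.00628), and with the 3 h libraries left out the adjusted p was 0.536. Ubiquitin coding repeats recur in more than 1 gene, so the count of Ubb is uncertain. Eif1, a translation initiation factor likewise named after its values were seen, had slopes of -0.14 in TBLC and 0.21 in diffTBLC (difference 0.35 ± 0.042, adjusted p = 5.10e-05). Of 22 p53 targets Btg2 was slower (4.55%, against 2.56% of all genes). Sesn2 and Gtse1 (-0.13 ± 0.023, adjusted p = 0.00224) were faster (9.09%, against 5.66% of all genes). The call of Gtse1, a p53-binding protein of the cell cycle, ended without diffTBLC 3 h replicate 1 or 2 (adjusted p = 0.0957 and 0.181), and not with the reference kept (0.00526 and 0.0117).

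Beyond these groups, the slower genes with the largest differences and a mean level of at least 3 log2 CPM included Pim3, a serine/threonine kinase. It measured 66.9 and 67.3 CPM at 0 h and 5.43 and 4.62 at 3 h in TBLC, and 123 and 125 CPM at 0 h and 27.8 and 24.1 at 3 h in diffTBLC (slopes of -1.29 in TBLC and -0.75 in diffTBLC, difference 0.54 ± 0.061, adjusted p = 3.32e-05). Faap24, a Fanconi anaemia core protein, differed by 0.49 ± 0.069, adjusted p = 2.71e-04, and Ankrd37, a hypoxia-inducible ankyrin protein, by 0.46 ± 0.053, adjusted p = 3.32e-05. Gjb5, a connexin, differed by 0.40 ± 0.045, adjusted p = 3.32e-05, Tmem51, a membrane protein, by 0.48 ± 0.10, adjusted p = 0.00767 and Ccdc86 by 0.40 ± 0.080, adjusted p = 0.00459. Of these 6, Tmem51 and Ccdc86 lost their calls with the 3 h libraries left out (adjusted p = 0.25 and 0.272).

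At the other end stood a ligand and a set of zinc finger genes. Inhbb, a subunit of activin B, measured 34.8 and 35.5 CPM at 0 h, 27.9 and 25.9 at 1 h, 21.5 and 21.3 at 2 h, and 17.6 and 16.9 at 3 h in TBLC. The diffTBLC libraries had 50.4 and 54.0 CPM at 0 h, 18.2 and 21.3 at 1 h, 12.1 and 13.4 at 2 h, and 9.0 and 9.42 at 3 h. It fell in both arms and more steeply in diffTBLC (slopes of -0.34 in TBLC and -0.87 in diffTBLC, difference -0.53 ± 0.077, adjusted p = 4.18e-04). Dclre1c, the nuclease Artemis, was faster too (-0.35 ± 0.082, adjusted p = 0.0128), but not without diffTBLC 3 h replicate 1 or 2 (adjusted p = 0.108 and 0.118; 0.0498 and 0.0567 with the reference kept).

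Zinc finger (Zfp) transcripts were short-lived in both states and moved either way. Of 345 tested, 294 fell in TBLC and 295 in diffTBLC (28.1% and 28.6% of all genes did), with median slopes of -0.37 and -0.40. In the difference 20 were slower and 30 faster (5.8% and 8.7%, against 2.56% and 5.66% of all genes). With RLE factors 23 and 22 were (3.37% and 2.34% of all genes), with the TBLC reference 38 and 17 (8.75% and 1.13%). Without diffTBLC 3 h replicate 1 or 2, with the reference kept, 13 were slower each time and 25 and 23 faster. Zfp397 measured 52.9 and 51.5 CPM at 0 h, 45.0 and 42.4 at 1 h, 36.9 and 36.8 at 2 h, and 33.6 and 36.6 at 3 h in TBLC. Levels in diffTBLC were 29.2 and 27.5 CPM at 0 h, 17.4 and 17.9 at 1 h, 10.5 and 10.7 at 2 h, and 7.19 and 7.68 at 3 h. All diffTBLC libraries were below all TBLC libraries, with slopes of -0.20 in TBLC and -0.66 in diffTBLC (difference -0.47 ± 0.038, adjusted p = 8.35e-07). Zfp948 (-0.44 ± 0.038, adjusted p = 2.11e-06), Rbak, a repressor that binds the retinoblastoma protein (-0.34 ± 0.052, adjusted p = 6.28e-04), and Zfp866 (-0.53 ± 0.12, adjusted p = 0.0116) were also faster, and Zfp37 was slower (0.39 ± 0.051, adjusted p = 1.51e-04). Members of this family share sequence, so reads may be split among close copies.

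Of the Clk kinases, which phosphorylate SR splicing factors, Clk1, Clk2 and Clk4 decayed faster in diffTBLC and Clk3 did not pass. Clk1 measured 178 and 182 CPM at 0 h, 121 and 118 at 1 h, 101 and 104 at 2 h, and 91.8 and 87.3 at 3 h in TBLC. In diffTBLC it measured 118 and 117 CPM at 0 h, 53.5 and 50.6 at 1 h, 35.7 and 35.5 at 2 h, and 25.6 and 26.7 at 3 h. Both arms fell most in the first hour and every diffTBLC library was below the TBLC library of its time (slopes of -0.33 in TBLC and -0.73 in diffTBLC, difference -0.40 ± 0.065, adjusted p = 8.24e-04).

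Of 17 SR protein and Clk genes, 6 were faster (35.3%, against 5.66% of all genes) and none slower, with median slopes of 0.069 and 0.026. Clk4 differed by -0.27 ± 0.041, adjusted p = 5.74e-04 and Srsf5, an SR protein, by -0.16 ± 0.019, adjusted p = 5.10e-05. Srsf11 (-0.13 ± 0.023, adjusted p = 0.00143), Srsf10 (-0.095 ± 0.023, adjusted p = 0.0161) and Clk2 (-0.18 ± 0.046, adjusted p = 0.0187) were less secure. Without diffTBLC 3 h replicate 1 or 2 the adjusted p of Srsf11 was 0.151 and 0.0603, and that of Srsf10 was 0.688 and 0.619. With the reference kept they were 0.00653 and 0.00283, and 0.0576 and 0.0582. Srsf10 also lost its call without TBLC 3 h replicate 2 (0.0515). Clk2 lost it without TBLC 0 h replicates 1 and 2 (0.0552 and 0.0502), TBLC 3 h replicate 1 (0.0516) and diffTBLC 3 h replicate 2 (0.101, or 0.0285 with the reference kept). The list's count of faster genes was 5 without either diffTBLC 3 h library with the reference kept, 5 with RLE factors and 4 with the TBLC reference. With the latter 1 was slower. Ccnl1, a cyclin of splicing kinases, was also faster (-0.37 ± 0.082, adjusted p = 0.00942).

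Core spliceosome transcripts were stable, with 35 of 38 rising in TBLC and 32 in diffTBLC, and 5 were faster in diffTBLC (13.2%, against 5.66% of all genes). Sf3b3 (-0.15 ± 0.020, adjusted p = 1.56e-04) of the U2 complex kept its call without each library. Sf3b1 (-0.16 ± 0.042, adjusted p = 0.0237), U2af2 (-0.072 ± 0.020, adjusted p = 0.0317), Sf3b2 (-0.068 ± 0.020, adjusted p = 0.0377) and Prpf4 (-0.12 ± 0.036, adjusted p = 0.0484) lost theirs without 5, 6, 9 and 10 of the 16 libraries, with adjusted p up to 0.410, 0.979, 0.996 and 0.545. Sf3b2 and Prpf4 were named after their values were seen. With RLE factors, or with the TBLC reference, 1 of the list was faster, and with RLE factors the median difference of -0.0065 became 0.018.

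Of the m6A machinery 3 of 11 writers and erasers (27.3%) and 1 of 13 readers (7.69%) were slower, against 2.56% of all genes, and 1 reader was faster (7.69%, against 5.66%). Ythdf2 and the core writer subunits did not pass. Ythdf2, the reader that directs m6A RNA to decay, measured 108 and 107 CPM at 0 h and 45.8 and 47.5 at 3 h in TBLC, and 97.8 and 99.8 CPM at 0 h and 39.7 and 42.4 at 3 h in diffTBLC. Its slopes were -0.41 in TBLC and -0.41 in diffTBLC (difference -0.0065 ± 0.041, adjusted p = 0.949). The writer subunits Mettl3 (0.0060 ± 0.032, adjusted p = 0.941), Mettl14 (0.0094 ± 0.029, adjusted p = 0.890), Wtap (-0.086 ± 0.032, adjusted p = 0.105) and Virma (-0.024 ± 0.037, adjusted p = 0.758) and the reader Igf2bp3 (-0.083 ± 0.043, adjusted p = 0.255) did not pass.

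The slower writers and erasers were Rbm15, Alkbh5 and Mettl16. Rbm15, which guides the writer to its targets, differed by 0.35 ± 0.048, adjusted p = 2.16e-04, with slopes of -0.42 in TBLC and -0.070 in diffTBLC. The demethylase Alkbh5 differed by 0.18 ± 0.051, adjusted p = 0.0307, but not without TBLC 3 h replicates 1 and 2 (adjusted p = 0.0937 and 0.0797) or diffTBLC 0 h replicates 1 and 2 (0.0756 and 0.0737). Mettl16, a methyltransferase of its own, differed by 0.094 ± 0.028, adjusted p = 0.0437, a call that ended without 11 of the 16 libraries (up to 0.146). Of the readers Igf2bp1 was slower (0.19 ± 0.025, adjusted p = 1.51e-04) and the nuclear reader Ythdc1 faster (-0.13 ± 0.032, adjusted p = 0.0205). The call of Ythdc1 ended without TBLC 3 h replicate 2 (0.0650) and without diffTBLC 3 h replicate 1 or 2 (0.541 and 0.382; 0.0772 and 0.0634 with the reference kept).

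Transcripts of the decay machinery itself had 4 slower and 3 faster members among 52 tested (7.69% and 5.77%, against 2.56% and 5.66% of all genes), with median slopes of -0.014 and -0.061. With the TBLC reference 10 were slower and none faster, where 8.75% and 1.13% of all genes were. Tob2, an adaptor of the Ccr4-Not deadenylase, was slower (0.38 ± 0.073, adjusted p = 0.00355), as was Btg2. Cnot6l, a catalytic deadenylase subunit, was faster (-0.19 ± 0.045, adjusted p = 0.0128), but not without diffTBLC 3 h replicate 1 or 2 (adjusted p = 0.106 and 0.170; 0.0257 and 0.0450 with the reference kept). Named after their values were seen, the helicase Ddx6 (0.15 ± 0.042, adjusted p = 0.0302) and Cnot4 (0.16 ± 0.046, adjusted p = 0.0378) were slower, and the nuclear exonuclease Xrn2 (-0.17 ± 0.043, adjusted p = 0.0212) and the decapping factor Patl1 (-0.17 ± 0.046, adjusted p = 0.0302) faster. Ddx6 lost its call without TBLC 3 h replicates 1 and 2 (0.102 and 0.0912) and diffTBLC 0 h replicates 1 and 2 (0.0608 and 0.0643), and Xrn2 without TBLC 0 h replicate 2 (0.0518), TBLC 3 h replicate 1 (0.0505) and diffTBLC 3 h replicates 1 and 2 (0.359 and 0.358, or 0.0793 and 0.0891 with the reference kept). Cnot4 lost it without 8 of the 16 libraries (up to 0.118) and Patl1 without 5 (up to 0.459).

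Of 9 genes of DNA methylation 4 were faster in diffTBLC (44.4%, against 5.66% of all genes) and none slower. With the TBLC reference none was faster and 1 slower. Dnmt1, the maintenance methyltransferase, measured 278 and 278 CPM at 0 h and 368 and 368 at 3 h in TBLC, and 215 and 213 CPM at 0 h and 195 and 184 at 3 h in diffTBLC (slopes of 0.13 in TBLC and -0.063 in diffTBLC, difference -0.19 ± 0.044, adjusted p = 0.0109). The dioxygenase Tet2 differed by -0.27 ± 0.068, adjusted p = 0.0194, the de novo enzyme Dnmt3b by -0.14 ± 0.035, adjusted p = 0.0216 and Uhrf1, the partner of Dnmt1, by -0.088 ± 0.024, adjusted p = 0.0298, while Tet1 did not pass (0.12 ± 0.048, adjusted p = 0.135). Without diffTBLC 3 h replicate 1 or 2 and with the reference kept, 1 was faster, with adjusted p of 0.0394 and 0.0487 for Dnmt1 and 0.0790 and 0.0770 for Tet2. With the reference moved none was. Tet2 also missed without TBLC 3 h replicate 1 or 2 (0.0572 and 0.0539), and Dnmt3b and Uhrf1 each missed without 5 of the 16 libraries (up to 0.452 and 0.851). With RLE factors 2 were faster.

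Of 25 replication and G1/S genes 1 was slower and 3 were faster (4% and 12%, against 2.56% and 5.66% of all genes). With the TBLC reference 7 and 0 were, against 8.75% and 1.13% of all genes. Ccne1 was slower (0.10 ± 0.029, adjusted p = 0.0407), and Slbp, which binds histone mRNA (-0.16 ± 0.045, adjusted p = 0.0291), Mcm2 (-0.073 ± 0.021, adjusted p = 0.0396) and Mcm5 (-0.077 ± 0.022, adjusted p = 0.0372), of the replicative helicase, were faster. Their calls ended without 8, 4, 8 and 10 of the 16 libraries, with adjusted p up to 0.115, 0.399, 0.975 and 0.933. Of 25 mitosis genes 1 was slower and 3 were faster (4% and 12%, against 2.56% and 5.66% of all genes), or 1 and 0 with the TBLC reference. The kinase Aurka was slower (0.16 ± 0.037, adjusted p = 0.0109). Its spindle partner Tpx2 (-0.13 ± 0.029, adjusted p = 0.0114) and the kinesins Kif11 (-0.20 ± 0.047, adjusted p = 0.0141) and Kif20a (-0.12 ± 0.035, adjusted p = 0.0333) were faster. Without diffTBLC 3 h replicate 1 or 2 the adjusted p was 0.369 and 0.406 for Tpx2 and 0.228 and 0.247 for Kif11 (0.0401 and 0.0490, and 0.0553 and 0.0629, with the reference kept), and Kif20a lost its call without 6 of the 16 libraries (up to 0.637). Aurka lost its call with the 3 h libraries left out (0.617), and Ccne1 and Kif20a were named after their values were seen.

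Ribosomal protein and respiratory chain transcripts formed the stable end of the pool in both states. Of 79 cytosolic ribosomal protein genes 77 rose in TBLC and 78 in diffTBLC (37.2% and 30.8% of all genes did), with median slopes of 0.31 and 0.31, and none passed for the difference in edgeR or DESeq2 (1 at an unadjusted p under 0.05 in edgeR). When each arm and time had its own mean in the fit, 17 of them were slower and 4 faster, where 4597 of all genes passed. Their share of all counts went from 7.91% at 0 h to 11.7% at 3 h in TBLC and from 10.6% to 15.5% in diffTBLC. Of 82 nuclear-encoded respiratory chain genes 81 and 82 rose, with median slopes of 0.29 and 0.31, and Ndufv3 was slower (0.14 ± 0.041, adjusted p = 0.0401), a call that ended without 7 of the 16 libraries (up to 0.117). With either family as the scale, the median slopes of all genes moved to -0.27 and -0.30 (ribosomal) or -0.25 and -0.27 (respiratory chain) in TBLC and diffTBLC, so the sign of a single arm's slope is relative, while the median difference stayed at -0.020 and -0.015.

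Transcripts made inside mitochondria departed from this pattern and, where they differed, lost share faster in diffTBLC. Of 11 tested, 4 fell in TBLC and 7 in diffTBLC (28.1% and 28.6% of all genes did), with median slopes of -0.054 and -0.27. In the difference 4 were faster (36.4%, against 5.66% of all genes). mt-Nd4, a complex I subunit, measured 1838 and 1818 CPM at 0 h and 1684 and 1719 at 3 h in TBLC, and 1539 and 1477 CPM at 0 h and 778 and 787 at 3 h in diffTBLC (difference -0.29 ± 0.039, adjusted p = 1.97e-04). mt-Cytb of complex III differed by -0.28 ± 0.036, adjusted p = 1.20e-04, mt-Co1 of complex IV by -0.25 ± 0.040, adjusted p = 8.24e-04, and mt-Nd1, named after its values were seen, by -0.19 ± 0.054, adjusted p = 0.0384. mt-Nd1 lost its call without 7 of the 16 libraries (up to 0.241). The share of counts from mitochondrial genes went from 3.13% to 2.39% in TBLC and from 2.20% to 1.12% in diffTBLC.

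Of 14 housekeeping reference genes, the elongation factors Eef1a1 (-0.072 ± 0.019, adjusted p = 0.0268) and Eef2 (-0.078 ± 0.023, adjusted p = 0.0421) were faster (14.3%, against 5.66% of all genes). Gapdh did not pass (-0.052 ± 0.023, adjusted p = 0.177). Eef1a1 lost its call without TBLC 3 h replicates 1 and 2 (0.0684 and 0.0699) and diffTBLC 3 h replicates 1 and 2 (0.960 and 0.774), and Eef2 without 9 of the 16 libraries (up to 0.989). Of 18 glycolysis genes Pgam1 was faster (-0.12 ± 0.032, adjusted p = 0.0301), a call that ended without 5 of the 16 (up to 0.660), and none of 24 cholesterol synthesis genes passed in edgeR (4 at an unadjusted p under 0.05, 2 slower in DESeq2, and 7 slower in edgeR with the TBLC reference). Pgam1 was thus 5.56% of its list, where 5.66% of all genes were faster. The snoRNA host gene Snhg11 was faster (-0.22 ± 0.034, adjusted p = 7.93e-04). Of 32 histone genes, at levels near 1 CPM, H2bc18 (0.96 ± 0.21, adjusted p = 0.0101), H1f3 (0.74 ± 0.15, adjusted p = 0.00521) and H3c8 (0.68 ± 0.18, adjusted p = 0.0345) were slower and H3c14 faster (-0.61 ± 0.16, adjusted p = 0.0266). Those are 9.38% and 3.12% of the list, against 2.56% and 5.66% of all genes. H3c8 and H3c14 lost their calls without 5 and 6 of the 16 libraries (up to 0.175 and 0.0694), and near-identical histone copies make all of these uncertain. H3c8 was named after its values were seen.

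Of 17 fibroblast and feeder markers 16 rose in TBLC and 12 in diffTBLC, and 4 were faster (23.5%, against 5.66% of all genes), namely Fn1 (-0.12 ± 0.034), Fbn1 (-0.19 ± 0.049), Fbln2 (-0.10 ± 0.028) and Thy1 (-0.12 ± 0.038). Their adjusted p-values were 0.0399, 0.0248, 0.0317 and 0.0466 by edgeR's quasi-likelihood test, and the calls ended without 11, 5, 4 and 14 of the 16 libraries (up to 0.648, 0.306, 0.587 and 0.341). With RLE factors none of the list passed, and with the TBLC reference 1 was slower. None of 11 tested trophectoderm markers passed in edgeR or DESeq2 (0 at an unadjusted p under 0.05 in edgeR).

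**Figure D3:**
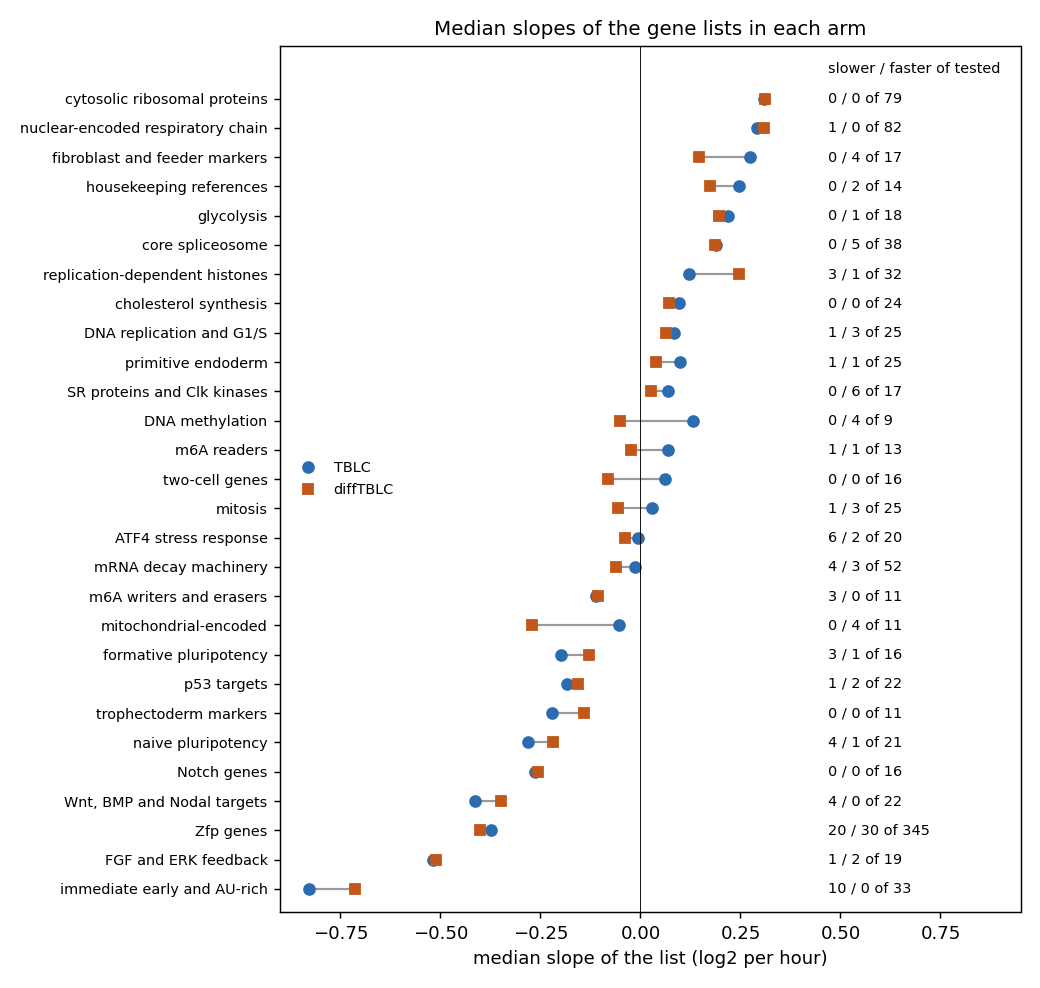
Median slope in log2 per hour of each gene list with at least 9 tested members, in TBLC (circles) and diffTBLC (squares), with the numbers slower and faster in diffTBLC out of those tested printed at the right. Ribosomal protein and respiratory chain lists sit at the right near 0.31 in both arms, immediate early genes at the left, and the mitochondrial-encoded list has one of the wide gaps, -0.054 against -0.27.

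At a mean level of at least 3 log2 CPM, the genes with the 5 lowest and 5 highest mean slopes over both arms did not pass for the difference, Dusp1 excepted. Fos, below that level, was lower still and passed. Beside Dusp1, Dusp6, Hes1 and Gbx2 the lowest mean slopes included Zfp296, with -1.38 in TBLC and -1.37 in diffTBLC. The highest were those of Snx22 (0.28 in TBLC and 0.44 in diffTBLC), Tlcd1 (0.30 in TBLC and 0.42 in diffTBLC), Myl4 (0.34 in TBLC and 0.45 in diffTBLC), Rplp2 (0.34 in TBLC and 0.38 in diffTBLC) and Dcn, a matrix proteoglycan (0.37 in TBLC and 0.37 in diffTBLC). For the difference of these 6 genes the adjusted p-values were 0.971, 0.330, 0.383, 0.342, 0.803 and 0.978 in the same edgeR fit.

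Departure from a straight line was called for fewer genes in TBLC than in diffTBLC. A squared-hour term passed for 1888 genes in TBLC (13.1%), of which 466 bent upwards (3.22%) and 1422 downwards (9.83%), and for 5950 in diffTBLC (41.1%), of which 3135 bent upwards (21.7%) and 2815 downwards (19.5%). The slower genes lost a median of 0.28, 0.33 and 0.41 log2 units in successive hours in TBLC, and 0.17, 0.13 and 0.085 in diffTBLC. The faster genes gained 0.11, 0.13 and 0.091 in TBLC, while in diffTBLC their median changes were 0.072, -0.072 and -0.089. The arms thus drew apart mainly after the first hour, which describes the sets chosen by slope. When each arm and time had its own mean in the fit, chosen after seeing the data, 4597 genes passed for the difference of slopes, among them 1187 of the 1188.

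The 3 other actinomycin D courses of the series, which share no library with these 16, were set beside them without a test because their tables were normalized separately. TBLC_Ctrl slopes ran close to those of TBLC (r = 0.90 over 13697 genes from 0 to 3 h). Slopes in diffTBLC correlated less with siNC1 and siNC2 over all times (r = 0.60 and 0.49) than from 1 to 3 h (r = 0.80 and 0.75). The difference between states was much less alike. Across genes, diffTBLC minus TBLC correlated with siNC1 minus TBLC_Ctrl at r = -0.13 (rho -0.24, 12874 genes) and with siNC2 minus TBLC_Ctrl at r = -0.17 (rho -0.26, 12908 genes) from 0 to 3 h, and at 0.28 (rho 0.34, 12692 genes) and 0.17 (rho 0.22, 12747 genes) from 1 to 3 h. TMM factors of the siNC courses were 0.978 to 0.997 at 0 h, 1.11 to 1.12 at 1 h, 0.961 to 0.979 at 2 h and 0.936 to 0.944 at 3 h, so the 1 h libraries were highest. Slopes from 1 to 3 h, a window chosen after seeing the data, are given below for some of the named genes. Those from 0 to 3 h are given for some genes whose order of courses changes.

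Nanog had 1 to 3 h slopes of -0.30 in TBLC and -0.29 ± 0.017 in TBLC_Ctrl, against 0.090 in diffTBLC, 0.034 ± 0.050 in siNC1 and -0.0013 ± 0.049 in siNC2. Its slope was below 0 by many times its error in TBLC_Ctrl and within about 1 error of 0 in siNC1 and siNC2. Sesn2 had slopes of -0.21 in TBLC and -0.27 ± 0.019 in TBLC_Ctrl, against -0.56 in diffTBLC, -0.68 ± 0.061 in siNC1 and -0.69 ± 0.050 in siNC2. Clk1 had slopes of -0.21 in TBLC and -0.31 ± 0.028 in TBLC_Ctrl, against -0.50 in diffTBLC, -0.56 ± 0.083 in siNC1 and -0.67 ± 0.058 in siNC2. For both, all 3 diffTBLC courses were steeper than both TBLC courses. Inhbb had slopes of -0.32 in TBLC and -0.11 ± 0.030 in TBLC_Ctrl, against -0.56 in diffTBLC, -0.83 ± 0.078 in siNC1 and -0.93 ± 0.087 in siNC2, Zfp397 had slopes of -0.16 in TBLC and -0.17 ± 0.043 in TBLC_Ctrl, against -0.64 in diffTBLC, -0.53 ± 0.15 in siNC1 and -0.37 ± 0.19 in siNC2, and the order was the same, although siNC2 has a wide error for Zfp397. Ubb had slopes of -0.40 in TBLC and -0.45 ± 0.017 in TBLC_Ctrl, against 0.22 in diffTBLC, 0.13 ± 0.075 in siNC1 and 0.072 ± 0.068 in siNC2, negative in TBLC and positive in diffTBLC. Some named genes did not keep the order. From 1 to 3 h mt-Co1 had 0.19 in TBLC, 0.12 ± 0.010 in TBLC_Ctrl and -0.22 in diffTBLC. It had 0.16 ± 0.12 in siNC1 and 0.13 ± 0.12 in siNC2. From 0 to 3 h mt-Co1 had -0.0091 ± 0.027 in TBLC_Ctrl, against 0.52 ± 0.15 in siNC1 and 0.52 ± 0.14 in siNC2. In siNC2 Atf4 (-0.25 ± 0.073) and Zfp36l1 (-0.36 ± 0.049) were level with TBLC_Ctrl (-0.24 ± 0.015 and -0.35 ± 0.031). Gjb5 and Ankrd37, both called slower, changed order with the window. Gjb5 had -0.33, -0.13 and -0.24 in TBLC_Ctrl, siNC1 and siNC2 from 1 to 3 h, and -0.16, -0.34 and -0.41 from 0 to 3 h. Ankrd37 had -0.58, -0.14 and -0.31 from 1 to 3 h, and -0.26, -0.36 and -0.46 from 0 to 3 h. From 0 to 3 h Dnmt1 had 0.018 ± 0.020 in TBLC_Ctrl, against 0.37 ± 0.11 in siNC1 and 0.39 ± 0.11 in siNC2. Other genes called faster also ran the other way from 0 to 3 h. Srsf5 had 0.074 ± 0.017 in TBLC_Ctrl, against 0.34 ± 0.055 in siNC1 and 0.34 ± 0.050 in siNC2. Its order was the same from 1 to 3 h (0.13, 0.20 and 0.17). In those 3 courses from 0 to 3 h, Sf3b3 had 0.037, 0.14 and 0.19, and Kif11 had -0.10, 0.081 and 0.17.

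For the immediate early genes the order depended on the window. From 0 to 3 h Fos had slopes of -2.35 in TBLC and -2.00 ± 0.17 in TBLC_Ctrl, against -0.86 in diffTBLC, -0.61 ± 0.11 in siNC1 and -0.63 ± 0.12 in siNC2. Dusp1 had -1.93 in TBLC and -2.07 ± 0.13 in TBLC_Ctrl, against -1.20 in diffTBLC, -1.16 ± 0.11 in siNC1 and -1.10 ± 0.090 in siNC2. Klf10 had -1.02 in TBLC and -1.04 ± 0.041 in TBLC_Ctrl, against -0.68 in diffTBLC, -0.62 ± 0.065 in siNC1 and -0.66 ± 0.065 in siNC2. All 3 fell less steeply in the diffTBLC courses than in either TBLC course. From 1 to 3 h Fos had slopes of -1.06 in TBLC and -0.71 ± 0.23 in TBLC_Ctrl, against -0.90 in diffTBLC, -0.83 ± 0.14 in siNC1 and -0.96 ± 0.17 in siNC2, and both siNC courses were steeper than TBLC_Ctrl. Dusp1 had 1 to 3 h slopes of -1.35 in TBLC and -1.10 ± 0.12 in TBLC_Ctrl, against -0.96 in diffTBLC, -1.50 ± 0.074 in siNC1 and -1.42 ± 0.084 in siNC2, so the siNC courses were the steepest of the 5. Klf10 kept its order from 1 to 3 h, with slopes of -0.96 in TBLC and -0.92 ± 0.054 in TBLC_Ctrl, against -0.71 in diffTBLC, -0.81 ± 0.054 in siNC1 and -0.90 ± 0.056 in siNC2, and a small gap between siNC2 and TBLC_Ctrl.

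As a count, 70.8% of 363 slower genes and 73.7% of 811 faster genes lay on the same side from 1 to 3 h of the median difference over all genes in siNC1 minus TBLC_Ctrl, and 69.4% and 68.7% in siNC2 minus TBLC_Ctrl; the 2 share the TBLC_Ctrl libraries. Over 0 to 3 h those shares were 61.2% and 27.6%, and 58.1% and 23.8%, so most faster genes did not keep their side when the 0 h libraries were used.

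**Figure D4:**
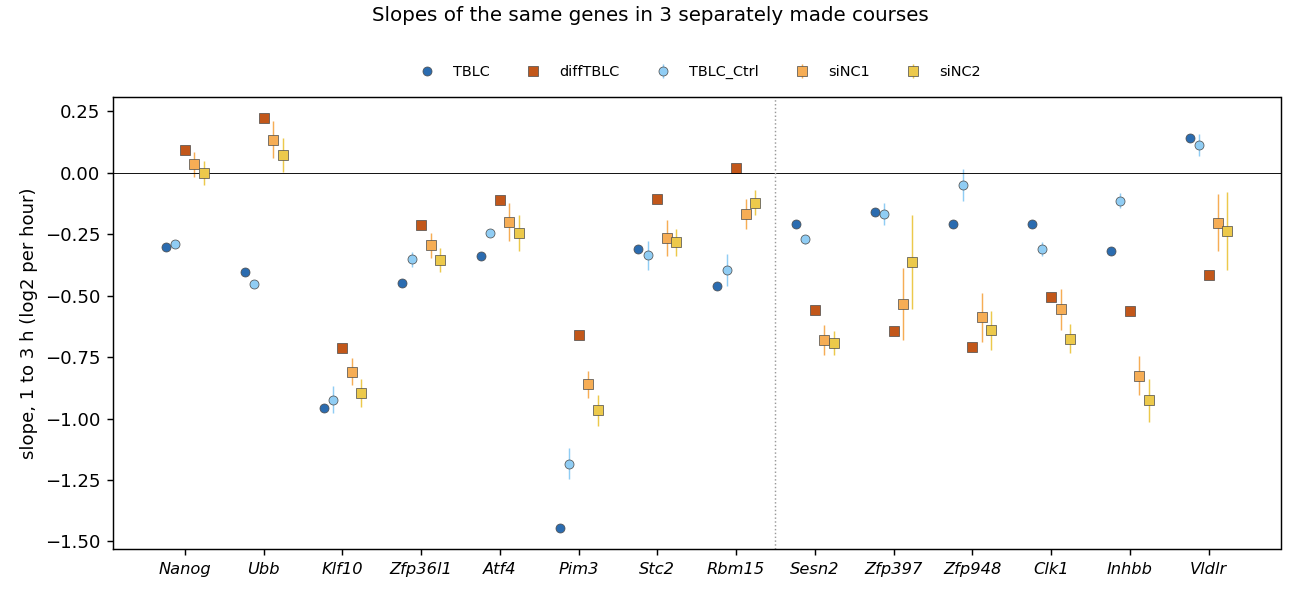
Slopes from 1 to 3 h in log2 per hour for 14 genes in TBLC and TBLC_Ctrl and in diffTBLC, siNC1 and siNC2; error bars are standard errors, drawn for the other courses only. Genes slower in diffTBLC stand left of the dotted line and genes faster in it to the right. Nanog and Ubb lie below 0 in both TBLC courses and near or above 0 in the 3 diffTBLC courses (siNC2 of Nanog at -0.0013). Sesn2, Clk1 and Inhbb lie lower in the diffTBLC courses. For Klf10, Zfp36l1 and Atf4 the siNC2 and TBLC_Ctrl points nearly meet.

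RNA bound by Ythdf2 in diffTBLC is a measurement that the slopes did not use. Of the 370 slower genes 359 were measured, and 225 (62.7%) were higher in the Ythdf2 immunoprecipitate than in input, with a median log2 ratio of 0.74; of all genes tested in that experiment 40.2% were higher and 38.8% lower. Faster genes were higher in 40.6% and lower in 44.0%, with a median of -0.071. The ratio also followed the slope in TBLC: over 4 equal groups of genes ordered by TBLC slope, from the steepest decline to the most stable, its median was 1.19, 0.35, -0.33 and -1.01, and slower genes are mostly short-lived in TBLC. For Igf2bp3, where 35% of all genes were higher and 34.8% lower, 35.1% of slower and 45.2% of faster genes were higher, the medians were -0.048 and 0.089, and those of the 4 groups 0.21, 0.11, -0.075 and -0.37.

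Single genes did not follow that pattern uniformly. The log2 ratio of Ythdf2 immunoprecipitate to input was 2.25 ± 0.14 for Dusp1, 2.09 ± 0.060 for Rbm15 and 2.20 ± 0.16 for Trib3, which were slower, and 2.57 ± 0.16 for Inhbb, which was faster. Nanog, although slower, was depleted (-1.0 ± 0.090), as was Pou5f1 (-1.72 ± 0.045), while Sox2 was enriched (1.32 ± 0.061). Sesn2 and Clk1, both faster, lay on opposite sides (0.83 ± 0.11 and -1.10 ± 0.072).

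The levels of these genes in sorted progeny went partly with their decay. In CD140+ PrE-T cells against TBLC, 50.1% of the slower genes were higher (34.2% of all genes were), with a median log2 difference of 0.31, and 48.8% of the faster genes were lower (35.1% of all genes were), with a median of -0.22. In CD140- EPI-T cells the medians were -0.00065 and -0.0062, and 36.3% of slower genes were higher (32.1% of all) and 40.8% of faster genes lower (35.1% of all).

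**Figure D5:**
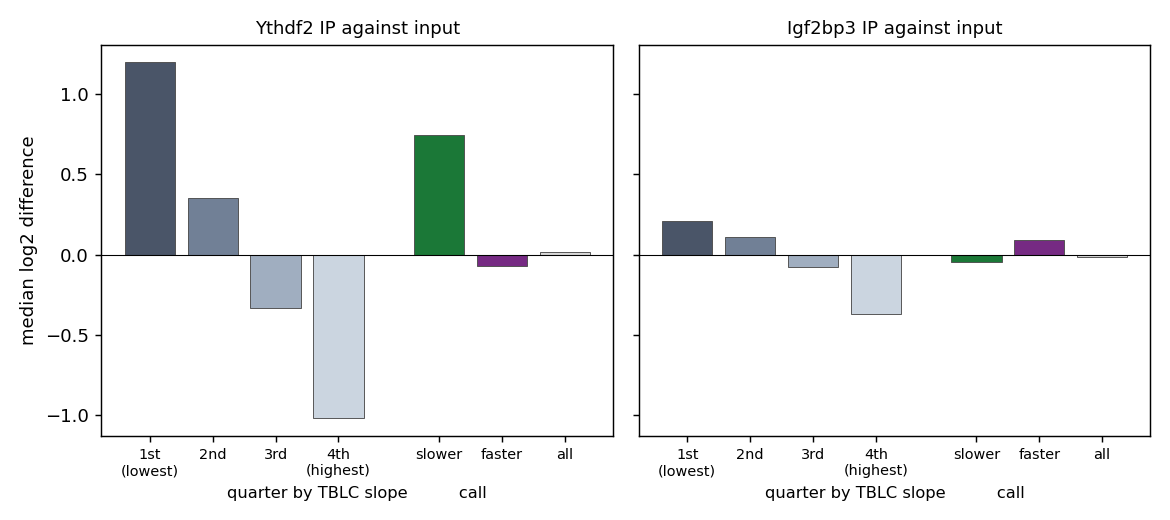
Median log2 ratio of immunoprecipitate to input for Ythdf2 and Igf2bp3 in diffTBLC, for 4 equal groups of genes ordered by slope in TBLC and for genes slower, faster and all. The Ythdf2 ratio goes from 1.19 in the group with the steepest decline to -1.01 in the most stable one, the Igf2bp3 ratio from 0.21 to -0.37, and the slower genes stand at 0.74 for Ythdf2.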

How the data were processed

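Total RNA of TBLC and diffTBLC was sequenced at 4 times in actinomycin D. The authors deposited raw counts per gene symbol, and the submitters' processing notes name FastQC 0.12.1, Trim Galore, STAR 2.7.11b, Subread, DESeq2 and the build mm39. The role of each, the counting options and the use of strand are not given in the sources used here, nor which of 2 library kits and 2 sequencers made which library, per the labels' protocols. Reads of overlapping or antisense genes may therefore be mixed.

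Counts were tested with edgeR 4.0.16 (R 4.3.3; filterByExpr over 8 arm-and-time groups, TMM, an intercept and a slope against hours per arm, quasi-likelihood F-test on 12 residual degrees of freedom, Benjamini-Hochberg over all 14463 genes, threshold 0.05), after a check on simulated data. For each gene both arms share 1 estimate of the spread. Errors after ± are standard errors, and CPM values carry no pseudocount. The ratio of immunoprecipitate to input and the sorted cells were tested the same way within their own tables. DESeq2 1.42.0, other scalings and TMM reference libraries, filters, time points, replicate blocks and left-out libraries were alternatives. The members and gene lists were chosen with earlier results of these data known. Named genes are 12 anchors, the 10 largest differences each way at 3 log2 CPM or more with predicted and clone names left out, up to 3 members of each of 29 lists with the lowest adjusted p, members of lists of 20 or fewer genes, and the 5 lowest and highest mean slopes; others are said to have been named after their values were seen. One gene of that rule is not reported here. 8 columns that match no sample, and the m6A peak lists, were not used here.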

Additional observations from a re-analysis of the deposited data

Results flagged for a closer look

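A small number of transcripts crossed from 1 side of the centre to the other, with opposite slopes that each passed the test beside a difference that passed: 16 genes fell in TBLC and rose in diffTBLC, and 57 rose in TBLC and fell in diffTBLC. Because each slope is set against the centre of the pool, the side on which a small slope falls depends on the scaling. The 5 genes with the largest difference in each direction at a mean level of at least 3 log2 CPM were as follows, all in edgeR's quasi-likelihood test.

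Ubb, a polyubiquitin gene, had slopes of -0.19 ± 0.054 in TBLC and 0.16 ± 0.050 in diffTBLC (difference 0.36 ± 0.074, adjusted p = 0.00628). Eif1, which helps choose the start codon, had slopes of -0.14 ± 0.030 in TBLC and 0.21 ± 0.029 in diffTBLC (difference 0.35 ± 0.042, adjusted p = 5.10e-05). Lsr, a lipoprotein receptor of tricellular junctions, had slopes of -0.13 ± 0.034 in TBLC and 0.16 ± 0.027 in diffTBLC (difference 0.29 ± 0.043, adjusted p = 4.75e-04). For Agpat4, an acyltransferase of phospholipid synthesis, they were -0.18 ± 0.027 in TBLC and 0.10 ± 0.022 in diffTBLC (difference 0.29 ± 0.035, adjusted p = 6.24e-05). For Rab3ip, an exchange factor of Rab8, they were -0.20 ± 0.024 in TBLC and 0.058 ± 0.022 in diffTBLC (difference 0.26 ± 0.033, adjusted p = 1.21e-04).

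In the other direction Vldlr, a lipoprotein receptor, had slopes of 0.11 ± 0.038 in TBLC and -0.25 ± 0.051 in diffTBLC (difference -0.37 ± 0.064, adjusted p = 0.00168). Thoc2l had slopes of 0.13 ± 0.025 in TBLC and -0.17 ± 0.032 in diffTBLC (difference -0.30 ± 0.041, adjusted p = 1.69e-04). For Zfp811 they were 0.087 ± 0.031 in TBLC and -0.20 ± 0.041 in diffTBLC (difference -0.29 ± 0.051, adjusted p = 0.00199). For Sdc1, a cell surface proteoglycan, they were 0.094 ± 0.024 in TBLC and -0.16 ± 0.025 in diffTBLC (difference -0.25 ± 0.035, adjusted p = 2.18e-04). For Khdc4, an RNA-binding protein, they were 0.048 ± 0.018 in TBLC and -0.20 ± 0.019 in diffTBLC (difference -0.25 ± 0.026, adjusted p = 2.25e-05). All 10 kept their calls without each library in turn; with the 3 h libraries left out Ubb, Lsr, Rab3ip and Zfp811 lost them (adjusted p = 0.536, 0.174, 0.0503 and 0.104).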

How the results depend on the processing

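Each slope is set against the centre of the pool, and 2 libraries a group limit the precision; the depth of 17595126 to 23145666 counts leaves genes near 1 CPM with wide errors. The count of genes whose slope differed (1188, with 370 slower and 818 faster) moved with the time points and the scaling. It was 4725 with the 0 h libraries left out (2131 slower, 2594 faster), 417 with the 3 h libraries left out (84 and 333), 4187 with 0 h and 3 h only (1118 and 3069) and 4597 with arm-and-time means (1505 and 3092). Scaled to ribosomal protein transcripts it was 109 (76 and 33) and to respiratory chain transcripts 248 (166 and 82). DESeq2 called 630 slower, RLE factors 339 faster, library totals 540 faster, and a minimum mean of 5 log2 CPM 186 slower, with 4099 slopes in TBLC and 4099 in diffTBLC among 5447 genes tested. Curvature in TBLC (1888) was 530 with 0 h left out, 1140 with 3 h left out, 1218 with DESeq2, 3753 with ribosomal scaling and 3170 with respiratory chain scaling, and in diffTBLC (5950) it was 758 with 0 h left out and 3768 at the higher minimum level. The fewer genes tested lower the counts at that level, and the cause of the other shifts was not tested.

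Leaving out each library in turn gave 641 to 1561 genes (216 to 876 slower, 101 to 1151 faster), 8671 to 9534 slopes in TBLC, 7967 to 8567 in diffTBLC, and curvature in 1400 to 1981 and 5206 to 5960 genes. The highest counts came without diffTBLC 0 h replicate 1 or 2 (1561 and 1504). Without diffTBLC 3 h replicate 1 or 2 the TMM reference library also moved, from diffTBLC 1 h to TBLC 2 h; with it kept, a setting chosen after seeing the data, 694 (243 slower, 451 faster) and 596 (211 and 385) genes passed, and with TBLC 2 h replicate 2 as reference for all libraries 1430 did (1266 and 164). Each of the 370 slower genes kept its sign without each library in turn, as did 813 of the 818 faster genes, and 158 and 81 kept their calls throughout.

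No pairing by replicate number was seen: deviations of same-numbered libraries correlated above 0.1 in 2 of 28 pairs, with a median of 0.036. The 2 libraries of a group differed by little more than counting noise in most groups. Low correlations therefore cannot show that pairing is absent. With the replicate block 1024 genes passed, and with a replicate block within each arm 799, of which 532 were faster.

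Of 4328 values of named genes under these settings 3517 kept direction and side of the threshold, 719 fell below it, 57 rose past it and 35 changed sign. With 0 h left out these slope differences became Ddit4 -0.026, Egr1 -0.11, Jun -0.00023, Myc 0.41, Pou5f1 0.077, Sox2 0.027, Sox7 0.13, Ythdf2 0.15 and Zfp57 0.0031. With 3 h left out they became Dcn -0.21, Gata6 -0.13, Hes1 -0.24, Mettl3 -0.035, Myl4 -0.055, Rplp2 -0.14, Tlcd1 -0.083, Utf1 -0.047 and Zfp296 -0.26, with the TBLC 2 h reference Gapdh 0.0094, Pou5f1 0.050, Virma 0.038 and Ythdf2 0.055, and with the reference kept Dcn -0.073 without diffTBLC 3 h replicate 1 and Tlcd1 -0.013 without replicate 2. Over single libraries left out, slope differences that changed sign ran for Gapdh -0.067 to 0.011, Igf2bp3 -0.11 to 0.0029, Pdgfra -0.11 to 0.023, Pou5f1 -0.019 to 0.037, U2af2 -0.077 to 0.0015, Virma -0.049 to 0.067 and Ythdf2 -0.034 to 0.064. Of these genes only Ddit4, Egr1, Utf1, Zfp57 and U2af2 had passed in the first place.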
